A study of Solanum lycopersicum with 32 samples.

Results

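The 183 tomato genes described here had a mean log2(CPM + 1) at least 0.4 above the controls in 4 separate settings whose labels give the stems, or a graft partner, a florigen transgene. CPM is the read count of a gene scaled to a common library total. The 4 differences were plants labelled pSFT-SFT minus sft mutants, 35S:SFT//sft grafts minus sft//sft grafts, 35S:SFT//WT grafts minus WT//WT grafts, and heated pHS:FT plants minus heated sft plants. Of 34728 genes, 188 met all 4 conditions, 5 were left out by identifier, and 183 remained. The genes were chosen by these measured differences, so their differences in these 4 settings are given as a description. Where counts of genes called in these settings are printed, they follow from the choice and are no evidence. The settings share no library and take up 16 of the 32 libraries, which leaves other stems in which the 183 genes could be tested.

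The series measured RNA from tomato stems in 16 groups of 2 libraries, in 5 experiments. In the overexpression experiment the groups were labelled pSFT-SFT, WT and sft, the last by its titles, while another label field names its genotype SFT. One label field calls the pSFT-SFT plants pTFT, so the promoter that drives SFT in them is uncertain. The graft experiment joined partners written as 35S:SFT//sft, sft//sft, 35S:SFT//WT, WT//WT and 35S:SFT//sp. One label field calls the sft//sft grafts sft//wt. From which graft partner the stem was cut is not stated. The heat-shock experiment used sft mutants throughout, with or without the pHS:FT transgene, each heated or not, so that its controls carry the sft mutation too. The FUL experiment compared WT, 35S:SFT and 35S:TFUL2 plants, and the Ginkgo experiment added 35S:GinFT plants with no wild type of their own. The 35S promoter is a viral promoter that is active in nearly all plant tissues. Per the labels, a sample pooled 5 mid-internode segments from greenhouse plants chosen as alike, cut 2 h after dawn. Neither the cultivar, the plants' age, the length of the heating, nor the number of independent transgenic lines is given in the sources used here.

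Florigen is a small mobile protein made in leaves that moves through the phloem and promotes flowering. In tomato it is encoded by SINGLE FLOWER TRUSS (SFT), a relative of FT of Arabidopsis, and it is counteracted by its homologue SELF PRUNING (SP). Tomato plants with the sft mutation flower late. The study's title ties florigen to the secondary cell wall, the thick inner wall that xylem vessels and fibres lay down as a stem matures. In Arabidopsis, FRUITFULL, a MADS-box transcription factor gene, is raised at the shoot tip by FT, and the label TFUL2 points to a tomato gene of that family. The files give identifiers of the Solyc type with no names, and the annotation table at hand matched 0 of them, so no name or function is given to any of the 183 genes, and no cell wall, xylem or tissue marker could be checked by name. By convention, such an identifier gives the chromosome and the order of the gene along it.

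The libraries held 16583755 to 45790153 counted reads, so that 3 reads, the limit that a count of 0 allows, correspond to 0.0655 to 0.181 CPM. Replicate libraries differed by more than counting noise in each group, with a chi-square of 7.26 to 47.6 per degree of freedom, and none was a copy of its partner. The row FT_arabidopsis had 57 and 70 reads in the heated pHS:FT libraries and 1 read in each unheated pHS:FT library. It had none in heated sft, but 12 and 0 reads in unheated sft, a group whose label holds no FT transgene. SFT is Solyc03g063100 by published knowledge, not by the files. That row stood at 62.0 ± 2.9 CPM (SD, n = 2) in 35S:SFT stems, at 1.59 ± 0.247 in 35S:TFUL2 stems and at 0 in the WT stems of the same experiment. It stood at 1.13 ± 0.156 CPM in the stems labelled pSFT-SFT against 2.44 ± 0.233 in sft and 2.5 ± 0.389 in WT (SD, n = 2 each), which goes against an overexpression label in this tissue. Directions drawn from the libraries labelled pSFT-SFT carry that limit. In the grafts the SFT row stood at 2.93 ± 0.247 CPM in 35S:SFT//sft, 1.36 ± 0.29 in 35S:SFT//WT and 2.45 ± 2.7 in 35S:SFT//sp. It stood at 1.43 ± 0.191 CPM in sft//sft and 1.5 ± 0.198 in WT//WT (SD, n = 2 each). Every graft group was thus far below the 35S:SFT stems of the FUL experiment. Which graft partner these stems came from was not tested.

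The genes differed most from their controls in the first and the last setting. The median difference in log2(CPM + 1) was 1.64 (0.49 to 8.0) in stems labelled pSFT-SFT against sft, and 1.51 (0.42 to 4.95) in heated pHS:FT against heated sft. It was 0.62 (0.4 to 1.78) in 35S:SFT//sft against sft//sft and 0.79 (0.4 to 2.79) in 35S:SFT//WT against WT//WT, so the graft settings decided which genes qualified. Over all 34728 genes, 7.24% reached a difference of 0.4 in the first setting, 1.94% in the 35S:SFT//sft grafts, 2.4% in the 35S:SFT//WT grafts and 5.42% after heating. The genes just inside the threshold were Solyc11g065840, Solyc10g008030 and Solyc03g044510, whose smallest differences were 0.401, 0.402 and 0.403. Just outside it were Solyc04g054710 at 0.399, Solyc06g076770 at 0.395 and Solyc01g096670 at 0.392. Across the 183 genes, which the rule kept to values above 0.4, the sizes of the differences in any 2 settings correlated with Pearson's r from 0.35 to 0.58.

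The largest mean difference over the 4 settings belonged to Solyc03g114900. Its level was 33.3 and 82.2 CPM in sft and 500 and 387 CPM in the stems labelled pSFT-SFT. In the grafts it read 53.6 and 44 CPM in sft//sft, 182 and 47.6 in 35S:SFT//sft, 51.8 and 193 in WT//WT, and 221 and 355 in 35S:SFT//WT. After heating it read 4.98 and 8.25 CPM in sft and 278 and 188 CPM in pHS:FT. The groups were far apart in the first and last settings, whereas the second 35S:SFT//sft library lay between the sft//sft libraries.

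Solyc09g089990 was next, with 9.1 and 31.2 CPM in sft against 203 and 160 in stems labelled pSFT-SFT, and with 0.705 and 1.68 CPM in heated sft against 35 and 34.2 in heated pHS:FT. In its grafts, 35S:SFT//sft read 63.7 and 17.7 CPM and sft//sft 16.3 and 25.5, so these groups overlapped. Its WT//WT libraries read 11.7 and 54.2 CPM, and its 35S:SFT//WT libraries, at 68.6 and 124, both lay above them. Solyc04g014550, Solyc09g007650, Solyc05g010800 and Solyc05g053620, also among the 10 genes with the largest mean differences, had the same order of groups in the first and last settings. In each of these 4 genes the first 35S:SFT//sft library lay above both sft//sft libraries and the second did not. Solyc11g066270 read 16.1 and 31.8 CPM in sft and 315 and 250 in stems labelled pSFT-SFT, then 12.2 and 14.3 in heated sft and 207 and 149 in heated pHS:FT. Solyc12g005820, a low gene, read 1.09 and 0.889 CPM in sft against 23.7 and 18.2 in the stems labelled pSFT-SFT, and both of its 35S:SFT//sft libraries, at 9.74 and 3.36 CPM, were above sft//sft at 1.81 and 2.09.

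Solyc03g019710 was a low gene, at 15 CPM or less in every library. It had 0 CPM in both sft libraries and 1.73 and 3.41 CPM in those labelled pSFT-SFT. In grafts it read 4.65 and 1.85 CPM in 35S:SFT//sft against 0.363 and 0 in sft//sft, and 10.9 and 15 in 35S:SFT//WT against 1.44 and 0.624 in WT//WT. After heating it was at 0 in both sft libraries and at 3.02 and 7.42 CPM in pHS:FT. It was one of the genes in which no donor or transgenic library overlapped its control in any of the 4 settings.

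Solyc02g084800 had a very large difference in 1 setting and small ones in the others. It read 477 and 395 CPM in stems labelled pSFT-SFT against 0.637 and 0.757 in sft and 0.707 and 1.05 in WT of the same experiment. It stayed at or below 2.86 CPM in all 10 graft libraries and at or below 0.541 CPM in all 8 heat-shock libraries. In the FUL and Ginkgo experiments it was high in WT at 420 and 293 CPM, in 35S:SFT at 219 and 231 and in 35S:GinFT at 115 and 124, but only 3.7 and 1.9 CPM in 35S:TFUL2. The gene was therefore read at over 100 CPM in 4 groups and at under 4 CPM in the other 12. Stems labelled pSFT-SFT and sft also differed in 64 rows that had at least 2 CPM in both libraries of one group and at most 3 reads in each library of the other, 28 of them read in pSFT-SFT and 36 in sft, none among the 183 genes by that count. In sft against WT there were 0 such rows. Whether these groups differ in genetic background beyond the transgene was not tested.

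By mean level over the 32 libraries the 183 genes ran from 0.676 to 2558 CPM with a median of 27.9. There were 51 under 10 CPM, 96 from 10 up to 100 and 36 at 100 or above. The most abundant were Solyc07g042520 at 2558 CPM, Solyc10g083970 at 968, Solyc03g080180 at 705, Solyc05g056170 at 357 and Solyc09g014240 at 335. These levels are scaled to library totals and not to length, so they rank reads and not transcripts. Solyc07g042520 alone took 1799 and 2410 CPM in sft, 6567 and 5376 in stems labelled pSFT-SFT, 600 and 692 in heated sft and 3644 and 3127 in heated pHS:FT. In the grafts its second 35S:SFT//sft library, at 1081 CPM, was below both sft//sft libraries at 1121 and 1086, and the first stood at 2257.

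The 35S:SFT//sft grafts did not form a uniform group. The 183 genes together took 1.552% of the reads in the first library and 0.774% in the second, against 0.716% and 0.696% in the sft//sft grafts. Against either sft//sft library, the first 35S:SFT//sft library was higher in 183 of 183 genes, by a median of 1.1 and 1.15 in log2(CPM + 1). The second was higher in 118 and 141 genes, by a median of 0.11 and 0.15. The WT//WT grafts were also uneven, with 0.813% and 1.47% of reads on the 183 genes, and the first 35S:SFT//WT library, at 1.534%, exceeded the second WT//WT library by a median of 0.15. The second 35S:SFT//WT library stood at 2.367%.

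Fitted across all genes with edgeR's quasi-likelihood test, neither graft contrast called any of the 183 genes at an adjusted p under 0.05 (background 0% higher in both). At an unadjusted p under 0.05, 31 were higher in 35S:SFT//sft (background 2.28%) and 48 in 35S:SFT//WT (background 3.26%). The rule chose the genes for higher means in these same grafts, so an excess over the background follows from the choice. The same fit called 174 of the 183 higher in stems labelled pSFT-SFT than in sft (background 10.3%) and 132 higher in heated pHS:FT than in heated sft (background 2.01%), counts that the choice of genes fixes. Both libraries lay above both controls for 181 genes in the first setting (background 28.9%), 88 in 35S:SFT//sft (background 14.1%), 109 in 35S:SFT//WT (background 15.2%) and 181 after heating (background 22.4%), and for 56 genes in all 4 (background 0.983%), counts that are again fixed in part by the choice of genes. The list itself rested on the first 35S:SFT//sft library: without it 9 genes met the rule, and without the second, 271 did. Without the first WT//WT library 95 genes met it. The word raised in a graft setting is thus a statement about a mean of 2 unlike libraries.

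**Figure D1:**
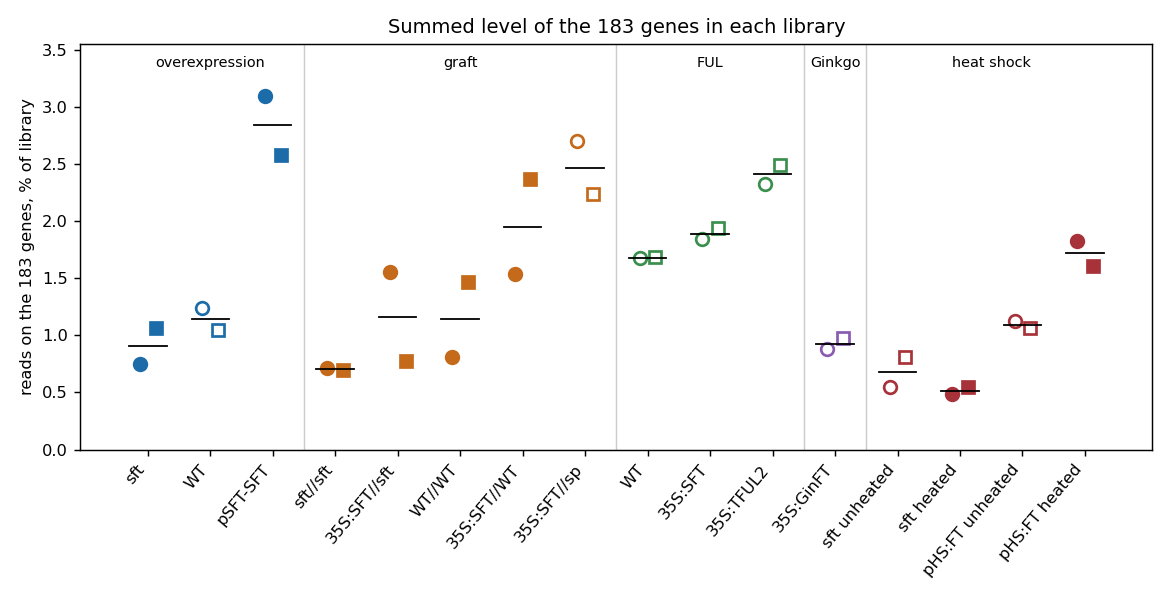
Percent of each library's reads that fall on the 183 genes, by group. Circles are replicate 1, squares replicate 2, filled symbols are libraries the rule used, and bars are group means. The graft pairs 35S:SFT//sft (1.552 and 0.774) and WT//WT (0.813 and 1.47) are spread widely, while the 35S:TFUL2 pair (2.327 and 2.491) and the 35S:GinFT pair (0.879 and 0.975) are close together.

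Among groups that the rule did not use, or used on one side only, the summed level differed widely. These levels are a description, and the experiments were separate, so an order across them is not a comparison of treatments. WT stems of the overexpression experiment held 1.241% and 1.042% of reads on the 183 genes, on average between sft at 0.749% and 1.061% and the stems labelled pSFT-SFT at 3.096% and 2.579%, with the second sft library above the second WT library. The 35S:SFT//sp grafts held 2.698% and 2.236%. In the FUL experiment WT held 1.673% and 1.684%, 35S:SFT 1.842% and 1.94%, and 35S:TFUL2 2.327% and 2.491%, so none of these 3 groups overlapped another. The 35S:GinFT stems held 0.879% and 0.975%. Unheated pHS:FT held 1.121% and 1.066% and unheated sft 0.551% and 0.809%. In bulk stems, a larger share of cells that express a gene and more RNA per cell cannot be told apart.

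**Figure D2:**
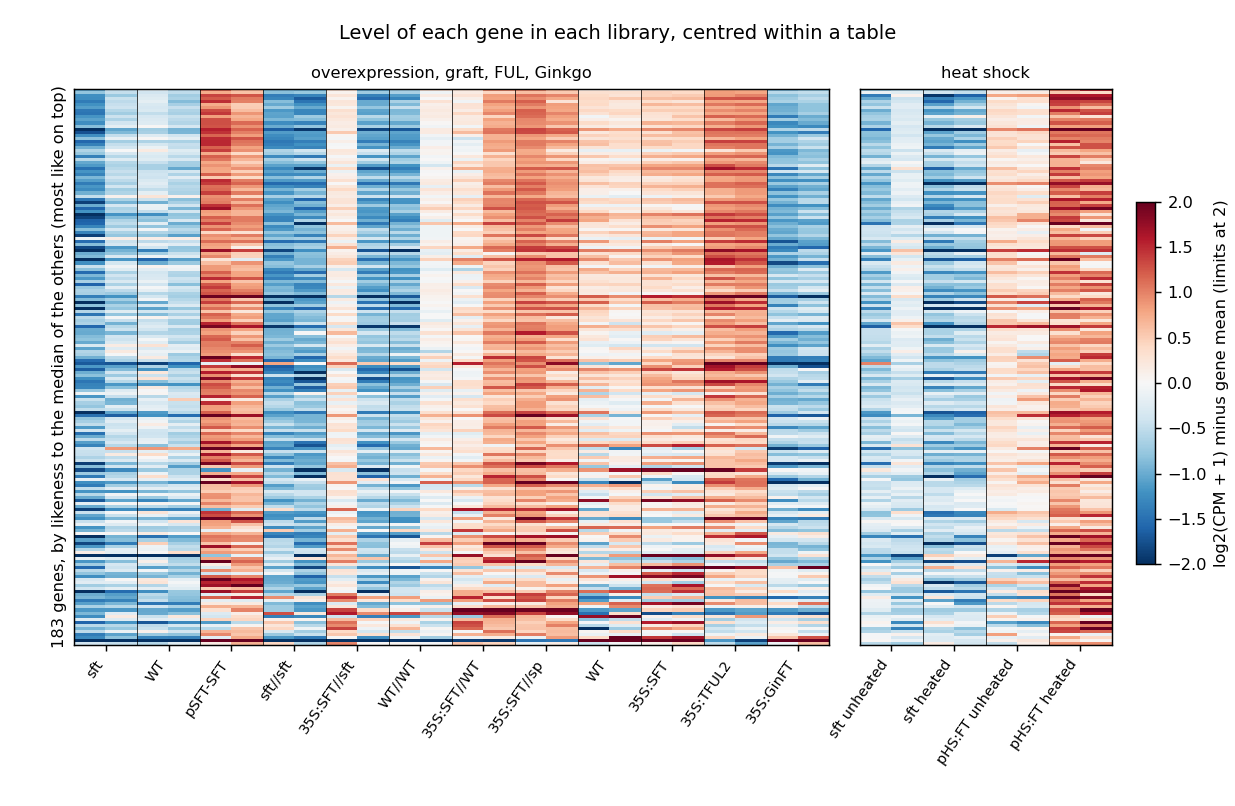
Level of each of the 183 genes (rows) in each library (columns), as log2(CPM + 1) minus the gene's mean over the libraries of its table. Genes are ordered by how closely they follow the median of the other 182 in the FUL and Ginkgo libraries, and the second 35S:SFT//sft column is close to the sft//sft columns, with a median over genes of -0.861 beside -0.934 and -0.934.

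Contrasts that reuse a group of the rule are also descriptions. The rule chose genes high in pSFT-SFT and heated pHS:FT and low in sft and heated sft. That choice favours rises in the former groups and falls in the latter. Plants labelled pSFT-SFT were above WT by an edgeR median log2 fold of 1.44, with 161 of 183 genes called higher (background 9.04%) and 0 lower (background 8.75%). The sft mutant stood at a median log2 fold of -0.36 against WT, with 0 genes called by edgeR in either direction (background 0.0142% higher and 0.0426% lower) and 1 higher (background 2.13%) and 18 lower (background 2.86%) at an unadjusted p under 0.05. The 35S:SFT//sp grafts exceeded 35S:SFT//WT by a median of 0.36, with 0 called by edgeR (background 0% higher and 0.00464% lower) and 2 higher at an unadjusted p under 0.05 (background 1.23%). Heated sft stood at a median log2 fold of -0.33 against unheated sft, with 0 called by edgeR (background 0.0487% in each direction). At an unadjusted p under 0.05, 3 were higher in heated sft (background 4.75%) and 53 lower (background 4.76%). Heated pHS:FT stood at a median of 0.72 against unheated pHS:FT, with 50 genes called higher (background 3.11%).

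In 35S:SFT stems against WT of the FUL experiment, which the rule did not use, 11 of the 183 genes rose (6.01%, against a background of 0.793% of the 21312 genes tested) and 0 fell (background 0.943%). The median log2 fold of the 183 genes was 0.14, with an interquartile range of -0.03 to 0.4, beside 0 over all genes tested. At an unadjusted p under 0.05, 47 were higher (background 9.94%) and 9 lower (background 10.8%). Both 35S:SFT libraries lay above both WT libraries for 94 genes (background 29.2%) and below them for 25 (background 24.7%). Of the 183 genes, 172 thus did not pass the test, which with 2 libraries a group does not show that they were unchanged. The SFT row was at 62.0 CPM in these 35S:SFT stems.

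Of the 11, 3 were under 1 CPM in both WT libraries. Solyc03g019710 read 0 and 0.0677 CPM in WT and 2.02 and 2.19 CPM in 35S:SFT (edgeR log2 fold 5.62, SE 0.79, adjusted p = 0.037). It was no higher in 35S:TFUL2, at 0 and 0.073 CPM, or in 35S:GinFT, at 0 and 0.13. Solyc06g067980 read 0.222 and 0.44 CPM in WT and 3.84 and 4.49 in 35S:SFT (log2 fold 3.59, SE 0.36, adjusted p = 0.017). Its 35S:TFUL2 libraries, at 0.494 and 0.365 CPM, were close to WT. Solyc03g026050 read 0.177 and 0.677 CPM in WT and 3.8 and 6.03 in 35S:SFT (log2 fold 3.45, SE 0.55, adjusted p = 0.048). In each of these genes both 35S:SFT libraries were above every WT, 35S:TFUL2 and 35S:GinFT library.

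Solyc09g075210 was the abundant member of the 11. It read 193 and 269 CPM in WT and 1379 and 1951 in 35S:SFT (edgeR log2 fold 2.84, SE 0.26, adjusted p = 0.014). Its levels in 35S:TFUL2 were 504 and 377 CPM (log2 fold 0.91 over WT, adjusted p = 0.063) and in 35S:GinFT 113 and 182 CPM, so 35S:SFT stood apart from the other 3 groups. It was also higher in 35S:SFT than in 35S:TFUL2 (log2 fold 1.93, SE 0.25, adjusted p = 0.016).

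The others rose less. Solyc01g098400 went from 32.7 and 22.9 CPM in WT to 102 and 99.9 in 35S:SFT (edgeR log2 fold 1.85, adjusted p = 0.017). Solyc01g079470 went from 5.01 and 4.13 CPM to 13 and 18.7 (log2 fold 1.79, adjusted p = 0.026), and Solyc04g082740 from 3.72 and 4.03 to 10.9 and 13.5 (log2 fold 1.64, adjusted p = 0.017). Solyc11g010120 went from 8.06 and 10.3 CPM to 26.1 and 29 (log2 fold 1.58, adjusted p = 0.04). The groups did not overlap in any of these 4 genes. Solyc09g074890 rose from 10.3 and 10.6 CPM to 15.9 and 18.8, Solyc09g014240 from 294 and 301 to 442 and 481, and Solyc06g007240, named because it completes the count, from 64.2 and 67.1 to 92.1 and 97.6. Their edgeR log2 folds were 0.73, 0.62 and 0.52, with adjusted p = 0.045, 0.044 and 0.044. The calls depended on single libraries: 0 of the 183 genes were called higher without the first or without the second 35S:SFT library, or with only these 2 groups fitted, and 17 were called without the first WT library (background 2.61%).

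**Figure D3:**
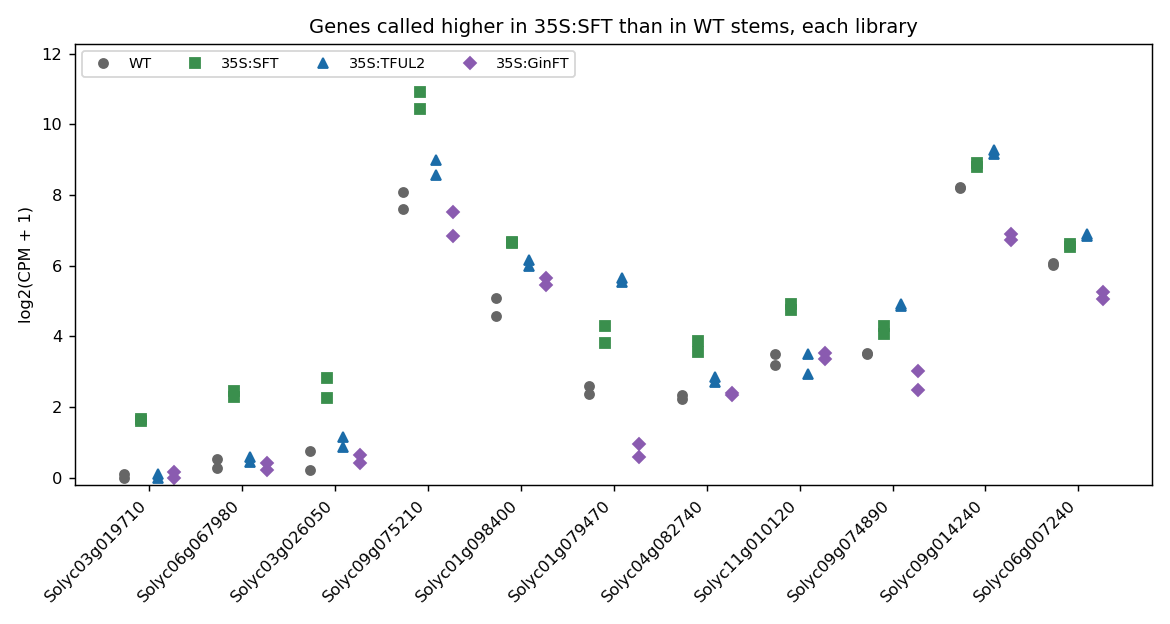
Level, as log2(CPM + 1), of the 11 genes called higher in 35S:SFT than in WT, in each library of WT, 35S:SFT, 35S:TFUL2 and 35S:GinFT. Each point is 1 library. In Solyc09g075210 and Solyc03g019710 the 35S:SFT points lie above all others, whereas in Solyc01g079470 the 35S:TFUL2 points (45.2 and 49.4 CPM) are the highest.

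In 35S:TFUL2 stems 103 of the 183 genes were higher than in WT (56.3%, background 7.46%) and 4 were lower (2.19%, background 5.28%). The median log2 fold was 0.6 beside 0.01 over all genes tested, with an interquartile range of 0.37 to 0.81. At an unadjusted p under 0.05, 131 were higher (background 16.8%) and 7 lower (background 13.7%). Both 35S:TFUL2 libraries were above both WT libraries for 153 genes (background 31.8%). The count fell to 20 without the first 35S:TFUL2 library (background 1.32%), to 12 without the second (background 0.77%), and to 61 with only these 2 groups in the fit (background 3.89%). Stems of 35S:TFUL2 and WT differed further in 41 rows that had at least 2 CPM in both libraries of one and at most 3 reads in each library of the other, 20 of them read in 35S:TFUL2 and 21 in WT, and their part in the result was not tested. The SFT row also differed, at 1.59 CPM in 35S:TFUL2 and 0 in WT, and its part was not tested either.

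The largest rises were in low genes. Solyc09g014230 read 0.31 and 0.101 CPM in WT and 11.6 and 9.53 in 35S:TFUL2 (edgeR log2 fold 5.71, SE 0.4, adjusted p = 0.0026). It read 0.543 and 0.522 CPM in 35S:SFT (log2 fold 1.42 over WT, adjusted p = 0.18). Solyc01g006560 went from 0 and 0.0677 CPM to 1.52 and 1.1 (log2 fold 4.92, SE 0.72, adjusted p = 0.014). Solyc09g084470 went from 1.37 and 0.304 CPM to 14.4 and 11.5 (log2 fold 3.98, SE 0.66, adjusted p = 0.019). Solyc01g079470 went from 5.01 and 4.13 CPM to 45.2 and 49.4 (log2 fold 3.36, SE 0.21, adjusted p = 0.002), the highest level of that gene among the 4 groups. Solyc08g022240 went from 0.487 and 0.507 CPM to 2.06 and 2.77 (log2 fold 2.25, SE 0.29, adjusted p = 0.011). None of the WT libraries reached a 35S:TFUL2 library in these 5 genes.

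The 4 genes that fell went against the direction of most of the 183. Their count rose without the first WT library and fell without either 35S:TFUL2 library, as did the count of lower genes over all genes tested. Solyc02g084800, described above, fell from 420 and 293 CPM in WT to 3.7 and 1.9 in 35S:TFUL2 (edgeR log2 fold -7.03, SE 0.36, adjusted p = 0.0014). Solyc08g076630 fell from 8.6 and 15.6 CPM to 2.43 and 4.23 (log2 fold -1.87, SE 0.38, adjusted p = 0.032). Solyc01g101180 fell from 1.02 and 1.56 CPM to 0.37 and 0.475 (log2 fold -1.62, SE 0.35, adjusted p = 0.038), and Solyc11g066270 from 206 and 243 to 138 and 106 (log2 fold -0.9, SE 0.18, adjusted p = 0.029). The Solyc08g076630 libraries of 35S:SFT, at 2.06 and 2.68 CPM, and of 35S:GinFT, at 2.42 and 2.64, were also below WT.

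The difference between 35S:SFT and 35S:TFUL2 stems was also tested directly. In 35S:SFT, 63 of the 183 genes were lower than in 35S:TFUL2 (34.4%, background 5.21%) and 11 were higher (6.01%, background 3.32%). The median log2 fold was -0.44 beside -0.01 over all genes. Both 35S:SFT libraries were below both 35S:TFUL2 libraries for 133 genes (background 34.6%) and above them for 27 (background 29.7%). Both counts dropped strongly on leaving out any single library of these groups, and so did the counts over all genes tested. Solyc05g010800 read 62 and 65 CPM in 35S:SFT and 124 and 119 in 35S:TFUL2 (edgeR log2 fold -0.93, SE 0.11, adjusted p = 0.013). Solyc09g014230 was lower by a log2 fold of -4.29 (SE 0.35, adjusted p = 0.0046), and Solyc09g007650 by -0.85 (SE 0.1, adjusted p = 0.013). Among the 11 that were higher, Solyc02g084800 stood at a log2 fold of 6.35 (SE 0.35, adjusted p = 0.0016), Solyc03g019710 at 5.62 (adjusted p = 0.018) and Solyc11g010120 at 1.71 (adjusted p = 0.017). By the count of rows given for 35S:TFUL2 and WT, these groups differed in 65 rows, 33 read in 35S:SFT and 32 in 35S:TFUL2. That count gave 22 rows for 35S:SFT and WT, 34 for 35S:GinFT and 35S:SFT, and 4 for 35S:GinFT and WT. Each of these sets held 1 of the 183 genes except the last, which held 0. Their part in the results was not tested.

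In 35S:GinFT stems the 183 genes stood lower. Against WT of the FUL experiment 116 were lower (63.4%, background 3.69% of 21458 genes tested) and 0 higher (background 2.55%; 2 higher at an unadjusted p under 0.05, background 13.1%, and 1 by DESeq2), with a median log2 fold of -1 (interquartile range -1.38 to -0.56) beside 0.01 over all genes. The 35S:GinFT plants have no WT of their own experiment, so the construct and the experiment cannot be told apart. Both 35S:GinFT libraries were below both WT libraries for 156 genes (background 27.3%) and above them for 6 (background 25.6%). The count of 116 became 53 without the first 35S:GinFT library (background 0.583%) and 45 with only these 2 groups fitted (background 0.517%).

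The genes with the largest falls covered low and middling levels. Solyc10g074490 fell from 3.23 and 2.5 CPM to 0.382 and 0 (edgeR log2 fold -3.84, SE 0.73, adjusted p = 0.031). Solyc02g087970 fell from 27.7 and 22.7 CPM to 2.89 and 2.07 (log2 fold -3.32, SE 0.2, adjusted p = 0.0019). Solyc10g081500 fell from 5.72 and 7.31 CPM to 0.552 and 0.907 (log2 fold -3.13, SE 0.31, adjusted p = 0.0043). Solyc09g010990 fell from 97 and 69.3 CPM to 16.8 and 7.43 (log2 fold -2.75, SE 0.36, adjusted p = 0.011). Solyc01g079470 fell from 5.01 and 4.13 CPM to 0.934 and 0.518 (log2 fold -2.61, SE 0.32, adjusted p = 0.0088), the opposite direction to its rise in 35S:SFT and 35S:TFUL2. Of the abundant genes, Solyc05g056170 fell from 490 and 537 CPM to 175 and 209 (log2 fold -1.4, SE 0.11, adjusted p = 0.0021), and Solyc07g042520 read 1939 and 2137 CPM beside 3025 and 3005 in WT (adjusted p = 0.063).

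Against 35S:SFT stems, 142 of the 183 were lower in 35S:GinFT (77.6%, background 15.3%), with a median log2 fold of -1.12 beside 0.01 over all genes. Both 35S:GinFT libraries were below both 35S:SFT libraries for 164 genes (background 37.7%) and above them for 4 (background 34.4%). The only gene called higher was Solyc02g083480, at 147 and 167 CPM in 35S:GinFT and 128 and 106 in 35S:SFT (edgeR log2 fold 0.46, SE 0.14, adjusted p = 0.042, against a background of 16.7% of genes called higher). That call was lost on leaving out any single library of these groups.

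**Figure D4:**
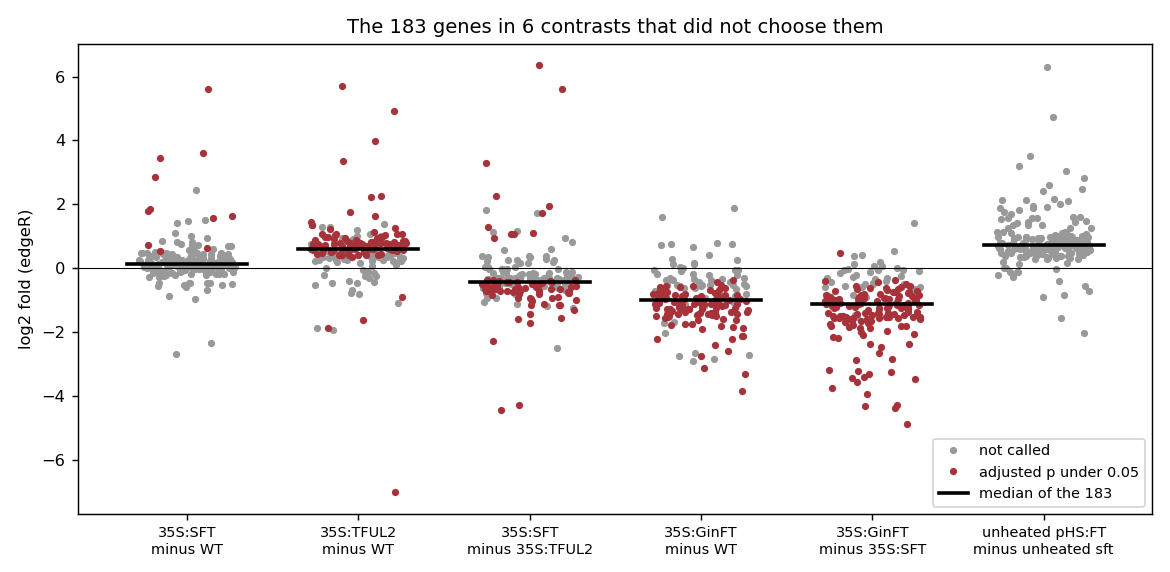
edgeR log2 fold of each of the 183 genes (points) in the 6 contrasts the rule did not use, in red where called at an adjusted p under 0.05 and grey where not; black bars are medians and points are spread sideways for legibility. The median runs from -1.12 in 35S:GinFT minus 35S:SFT to 0.71 in unheated pHS:FT minus unheated sft, and no gene is called in the latter, whose genotypes the rule compared after heating.

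Without heating, pHS:FT stems were already higher than sft in most of the 183 genes, but no gene was called. The rule had compared the same genotypes after heating, so the choice of genes may favour this direction although no library is shared. By edgeR 0 of 20546 genes passed an adjusted p under 0.05 in either direction, and the smallest adjusted p among the 183 was 0.22. At an unadjusted p under 0.05, 119 of the 183 were higher (background 3.94%) and 2 lower (background 3.1%). The median log2 fold was 0.71 beside 0 over all genes, with an interquartile range of 0.47 to 1.01. Both pHS:FT libraries were above both sft libraries for 153 genes (background 13.5%) and below them for 3 (background 24.5%). DESeq2 called 44 higher (background 0.394%), and edgeR called 47 without the second unheated sft library (background 0.38%).

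Levels in single genes show the size of this difference. Solyc03g114900 read 13.5 and 34.4 CPM in unheated sft and 82.9 and 90 in unheated pHS:FT (edgeR log2 fold 1.89, SE 0.44, adjusted p = 0.5). Solyc12g005820 read 0.357 and 0.727 CPM in unheated sft and 3.71 and 8.05 in unheated pHS:FT (log2 fold 3.51, SE 0.51, adjusted p = 0.22). Solyc09g075210 read 28.7 and 17.3 CPM in unheated sft and 17 and 31.1 in unheated pHS:FT, so these groups overlapped, while heating took pHS:FT to 547 and 291 CPM and sft to 90.2 and 74.5. Solyc06g067980 read 2.79 and 0.47 CPM in unheated sft and 0.431 and 0.33 in unheated pHS:FT, so that it was lower in pHS:FT, against the direction of most of the 183 genes (edgeR log2 fold -2.04, SE 0.79, adjusted p = 0.69). In heated pHS:FT it read 12.2 and 11 CPM. The unheated pHS:FT libraries had 1 FT_arabidopsis read each. The SFT row was 2.95 ± 0.0849 CPM in unheated pHS:FT and 2.19 ± 0.714 in unheated sft (SD, n = 2).

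The size of a gene's difference in one contrast did not carry over evenly to others. Across the 183 genes, the difference between stems labelled pSFT-SFT and sft correlated with that between 35S:SFT and WT at Pearson's r = -0.02 and Spearman's rho = 0.04, and with that between unheated pHS:FT and unheated sft at r = 0.47 and rho = 0.6. These contrasts share no library, but genes are not independent replicates, and the rule bounds the first measure from below. Between unheated pHS:FT against sft and 35S:SFT against WT, r was -0.31 and rho -0.19. Unheated pHS:FT against sft gave r = 0.19 with 35S:TFUL2 against WT and r = -0.39 with 35S:GinFT against WT.

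**Figure D5:**
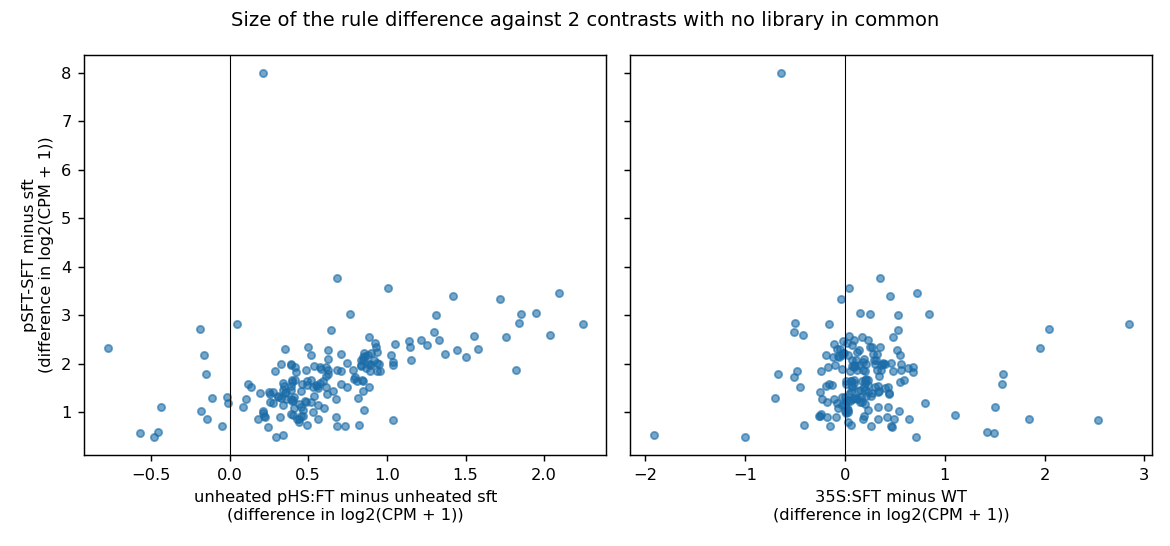
Difference in log2(CPM + 1) between stems labelled pSFT-SFT and sft (vertical axis) against 2 contrasts with no library in common (horizontal axes), for the 183 genes. Points are genes; the spread is without slope against 35S:SFT minus WT (r = -0.02) and slopes upward against unheated pHS:FT minus unheated sft (r = 0.47).

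Across the 8 libraries of the FUL and Ginkgo experiments, most of the 183 genes followed one pattern. The correlation of a gene with the median of the other genes was 0.8 or more for 135 genes, 0.5 to 0.8 for 21, 0 to 0.5 for 21 and below 0 for 6, with a median of 0.95. The 8 libraries are 4 groups of 2, so this describes levels of 4 groups. The share of all genes with such correlations, or with the steps given next, was not computed. Neither is thus shown to be particular to the 183 genes. By group means of log2(CPM + 1), 35S:GinFT was below WT in 169 genes, WT below 35S:SFT in 136 and 35S:SFT below 35S:TFUL2 in 148, and 106 of the 183 genes held all 3 steps. The 6 below 0 were Solyc06g072230 at -0.61, Solyc02g084800 at -0.52, Solyc05g015480 at -0.2, Solyc02g078650 at -0.19, Solyc01g101180 at -0.13 and Solyc11g007950 at -0.03. Of the genes described above, Solyc02g084800 and Solyc01g101180 were also among the 4 that fell in 35S:TFUL2.

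By their identifiers the 183 genes lie on all 12 chromosomes, with 9 to 24 genes on each, or 0.303% to 0.717% of the rows of a chromosome. There were 10 pairs of genes within 3 rows of each other, made of 19 genes, and 4 of these pairs were next to each other: Solyc03g098260 with Solyc03g098270, Solyc03g122070 with Solyc03g122080, Solyc09g007650 with Solyc09g007660, and Solyc09g014230 with Solyc09g014240. Over 24 libraries the genes of a pair correlated at Pearson's r from 0.65 to 0.98. The library kit does not mark strand, so reads from neighbours that overlap on opposite strands cannot be told apart. Whether close copies share reads was not tested, so such pairs are uncertain as separate genes. In 35S:TFUL2 against WT, Solyc09g014230 rose by an edgeR log2 fold of 5.71 (SE 0.4, adjusted p = 0.0026) and Solyc09g014240 by 0.97 (SE 0.1, adjusted p = 0.0056).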

How the data were processed

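The authors deposited raw read counts per gene in 2 tables, 1 for the heat-shock experiment and 1 for the others. Per the submitters' processing notes the tools were HTSeq 0.6.1, Bowtie2 2.2.6, TopHat2 2.1.0, Trim Galore and FastQC 0.11.5, listed without roles or order; of the build and the strand setting nothing is given in the sources used here. Per the labels, single 50 bp reads came from TruSeq v2 libraries. Rows other than Solyc genes numbered 97, in the heat-shock table, and held 0.00158% of its reads; they took part in that table's fit. Levels are CPM by column total, in Python 3.11.15. Tests were edgeR 4.0.16 quasi-likelihood fits (R 4.3.3) on the deposited counts, with TMM scaling, filterByExpr (minimum count 10, minimum total 15) and Benjamini-Hochberg adjustment over all genes, 1 fit for each experiment and 1 for FUL with Ginkgo; the pipeline was tested on simulated data. All 183 genes passed the filter in every fit. SE is the log2 fold divided by the square root of F, as a size. DESeq2 1.42.0 was an alternative. "Background" is the share of all genes tested that a contrast called; for groups that do not overlap it is over rows with at least 10 reads.

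The 183 genes, the tests and the lists were chosen with earlier results of these data known. Genes named are the 10 with the largest mean difference in the rule, the 5 most abundant, up to 10 called each way in 35S:SFT against WT, up to 5 each way in the other contrasts against a control, and 3 genes on each side of the threshold; any others were picked after their values were seen. Lists of cell wall or hormone genes could not be matched to identifiers and were not run. Nothing says that replicates came from separate plants. The p-values rest on the spread between replicate samples, estimated jointly over all groups of a fit, and this spread may be partly technical. Limits from counts cover counting error only.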

Additional observations from a re-analysis of the deposited data

How the results depend on the processing

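DESeq2 called 21 genes higher (background 3.03%) and 4 lower (background 4.05%) in 35S:SFT against WT. In 35S:SFT against 35S:TFUL2 it called 96 lower (background 8.4%). It called 1 higher in 35S:GinFT against WT (background 3.69%) and 44 higher in unheated pHS:FT against sft (background 0.394%). Without a filter on low counts, 1 gene was lower in 35S:SFT (background 1.22%) and 1 higher in 35S:GinFT (background 1.99%) than in WT. When a fit held just the pair of groups in question, 0 genes were higher in 35S:SFT than in WT (background 0.043%). In 35S:TFUL2 against WT, 61 were higher (background 3.89%) and 2 lower (background 2.44%). In 35S:GinFT against WT, 45 were lower (background 0.517%). In 35S:SFT against 35S:TFUL2, 17 were higher (background 7.46%) and 95 lower (background 9.01%). In 35S:GinFT against 35S:SFT, 2 were higher (background 17.8%). With the replicate number as a block, 5 genes were higher (background 0.582%) and 1 lower (background 0.685%) in 35S:SFT against WT. In 35S:GinFT against 35S:SFT, 0 were higher (background 15%). The block moved no other count by more than 1.5 times. Deviations of same-numbered samples correlated at -0.13 to 0.22 in the FUL and Ginkgo groups and at -0.24 to 0.32 in the heat-shock groups, so the numbers are not shown to pair samples. The counts given next, with 1 library left out, in most cases moved together with the share of all genes called.

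Leaving out 1 library at a time gave 0 to 17 genes higher and 0 to 3 lower in 35S:SFT against WT, 12 to 97 higher and 1 to 9 lower in 35S:TFUL2 against WT, 1 to 3 higher and 0 to 12 lower in 35S:SFT against 35S:TFUL2, 0 to 3 higher and 53 to 109 lower in 35S:GinFT against WT, 0 higher in 35S:GinFT against 35S:SFT, and 0 to 47 higher in unheated pHS:FT against sft; the lone library left in a group is assumed to vary like the others. The count of 142 genes lower in 35S:GinFT than in 35S:SFT ranged from 123 to 150 over the alternatives run, and 123 to 142 of the genes called were among the 142.

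The rule gave 285 genes at a difference of 0.3, 115 at 0.5, 216 with a pseudocount of 0.5, 196 with TMM-scaled CPM, and 9 to 271 with 1 library left out. Chosen after seeing the data, the rule without the 35S:SFT//sft setting gave 309 genes and without both graft settings 911; of the 911, 3.4% were higher in 35S:SFT and 24.9% in 35S:TFUL2 than in WT, 24.9% were lower in 35S:GinFT than in WT and 46.9% lower than in 35S:SFT. For the 56 genes whose groups did not overlap in any setting the shares were 7.14%, 62.5%, 66.1% and 76.8%. Of the 24 calls of a named gene against WT, none changed direction in the alternatives run, but many weakened. With only the compared groups fitted 15 were weaker, with the replicate block 5 and with DESeq2 1. With the size factors of DESeq2 or without the filter 0 were weaker. Calls also weakened when 1 library was left out. The other named genes were not followed singly. With 2 libraries a group, small differences cannot be shown.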
